A study of Mus musculus with 22 samples.

Results

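The genes described here are the nuclear-encoded subunits of the mitochondrial oxidative phosphorylation complexes in CD8+ T cells with and without VHL. They were taken by gene symbol (Nduf, Sdh, Uqcr, Cyc1, Cycs, Cox4 to Cox8 and Atp5 names), without the 6 rows whose names mark pseudogenes. Of the 86 rows left, 79 reached a scaled count of 10 in at least 2 libraries and are called the members below, among 14327 genes that passed the same filter and 46297 rows in all. A scaled count is a read count divided by the authors' size factor for the library. The members comprise 37 of 38 complex I rows, 4 of 4 complex II rows, 10 of 10 rows of complex III with cytochrome c, 12 of 18 complex IV rows and 16 of 16 ATP synthase rows.

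RNA was sequenced from P14 CD8+ T cells, which carry a transgenic T cell receptor, of C57BL/6 mice aged 6-12 weeks, in wild-type (WT) and VHL-deficient form. The 22 libraries fall into 10 groups, a WT and a VHL-deficient one in each of 5 settings: tumor at day 11 (3 libraries per genotype), and, with 2 libraries per genotype each, tumor at day 7 without a further sort (unsplit), spleen at day 7, and the Trm and nonTrm sorts of day 7 tumor. Each replicate pooled 5 mice, per the series' design text. The sources used here do not say which tumor was used, what day 0 marks, which markers define the Trm sort or what drove VHL deletion.

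Complexes I and II feed electrons from NADH and succinate into ubiquinone. Complex III passes them through cytochrome c to complex IV, which reduces oxygen, and ATP synthase uses the proton gradient so formed. VHL marks the hypoxia-inducible factors (HIF) for degradation in the presence of oxygen, and HIF is known to turn on genes that lower mitochondrial respiration. CD8+ T cells are known to raise mitochondrial gene expression when they are activated and divide.

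Libraries held 3375558 to 10211060 reads, of which 26.9% to 45.7% fell on 1 ribosomal RNA gene and 2.89% to 12.1% on the mitochondrial genome, which left 1780047 to 6268448 reads. Vhl had a scaled count of 0 to 21.9 in the VHL-deficient libraries and of 111 to 211 in the WT libraries, so the labels held in 22 of 22. The 9 T cell markers summed to 27140 to 79780 scaled counts in every library, and the 6 melanoma markers to at most 98.3. The second nonTrm VHL-deficient library stood apart. Its median member lay 0.99 above the mean of all libraries on the log2 scale against 0.64 below it in the other library of that group, and its long nuclear RNA Malat1 was at 34358 against 4839 to 15027 in the other 21 libraries. Results that rest on it are given with and without it. In bulk libraries, fewer cells of a type and less RNA per cell cannot be told apart.

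The stretches of upstream DNA below show what the members' promoters hold. They belong to the member with the lowest fold change at day 11 (Ndufa4), another member called lower there (Cox5a), the single member that was higher without VHL in all 5 settings (Ndufv3) and a complex II subunit whose day 11 groups overlapped (Sdha). Each holds 150 bases from upstream of the gene on its own strand (RefSeq, GRCm38.p6). Those of Cox5a and Ndufv3 end at the RefSeq start, that of Ndufa4 ends 47 bases before it and that of Sdha 40 bases before it. They are printed with matches in capitals to ACGTG or GCGTG, the core letters of hypoxia response elements (HRE), or to GCGCANGCG, the core letters of an NRF1 site, on either strand.
Cox5a, chr9:57521082-57521231, plus strand: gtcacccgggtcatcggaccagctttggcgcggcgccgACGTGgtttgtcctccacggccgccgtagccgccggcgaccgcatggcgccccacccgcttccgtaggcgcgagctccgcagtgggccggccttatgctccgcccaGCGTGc
Ndufa4, chr6:11907498-11907647, minus strand: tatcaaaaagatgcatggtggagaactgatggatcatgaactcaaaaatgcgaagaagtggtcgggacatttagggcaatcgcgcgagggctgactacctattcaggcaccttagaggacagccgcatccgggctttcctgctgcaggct
Ndufv3, chr17:31519965-31520114, plus strand: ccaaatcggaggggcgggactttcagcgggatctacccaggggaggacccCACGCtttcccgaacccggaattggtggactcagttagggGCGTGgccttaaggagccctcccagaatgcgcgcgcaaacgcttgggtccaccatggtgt
Sdha, chr13:74350281-74350430, minus strand: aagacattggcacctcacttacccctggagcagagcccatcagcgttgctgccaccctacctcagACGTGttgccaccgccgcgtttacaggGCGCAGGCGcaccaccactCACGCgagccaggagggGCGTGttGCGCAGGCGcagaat

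The HRE letters thus stood in the stretches of Cox5a, Ndufv3 and Sdha and not in that of Ndufa4, and of the 4 only that of Sdha held the NRF1 letters. Over the longer RefSeq windows, from 250 bases before to 50 after the start, 70 windows of 65 members could be matched. The NRF1 letters were in 31.4% of them against 6.25% of all 32851 windows. The ETS letters CCGGAAG, which GABP binds, were in 22.9% against 8.86%, and the YY1 letters AAGATGGCG in 10% against 1.4%. The HRE letters, which are short and can overlap an NRF1 match, were in 62.9% against 43.8%, and the longer window of Ndufa4 was among those that held them. NRF1, GABP and YY1 are textbook regulators of nuclear genes for respiration, and these matches describe the letters only.

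The members' levels ranged widely. Per kilobase of each gene's principal transcript, averaged over the 22 libraries, the median level was 335 scaled counts in complex I, 536.5 in complex II, 414.5 in complex III with cytochrome c, 627 in complex IV and 671 in ATP synthase. On this scale the highest averages were Cox4i1 (3871), the ubiquitous isoform of the largest nuclear complex IV subunit, and Atp5b (3271), the catalytic beta subunit of ATP synthase. Atp5g3 (2116), a membrane ring subunit gene, Atp5a1 (2004), the alpha subunit, and Uqcrh (1999), the complex III hinge protein, followed. The order differed between groups. Atp5b was above Cox4i1 in WT day 11 tumor (4434 against 3755) and in unsplit day 7 tumor of both genotypes (5628 against 4536 in WT, 3153 against 2974 without VHL), and Atp5g3 was below Atp5a1 at day 11 (2397 against 2593 in WT, 1120 against 1711 without VHL). Atp5g3 was also below Atp5a1 in spleen of both genotypes and, without VHL, in unsplit day 7 tumor and in Trm. The lowest was Cox6b2 at 7.20, a testis isoform that passed the filter in only 2 libraries. Ndufb2 (18.1), Cycs (19.2), which encodes cytochrome c, and Atp5s (19.7) were also low on this scale. The level is divided by transcript length, which was 4371 bases for Ndufb2 and 3123 for Cycs, against a median of 875 over the members. The low rank of these 2 genes thus depends on the transcript chosen. Reads shared with pseudogenes may also be counted differently for such genes, since the counting settings are not given.

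Where a subunit has a ubiquitous and a tissue-restricted isoform, the reads of each group were almost all on the ubiquitous one. Cox4i1 took 99.7% to 100% of the Cox4i1 and Cox4i2 reads over the 10 groups, Cox6a1 99.8% to 100%, Cox8a 99.7% to 100% and Cox6b1 98.1% to 100% of theirs. Cox4i2 and Ndufa4l2, which HIF is known to induce in other cells, did not pass the filter. Cox4i2 had 73 reads in all, 41 in VHL-deficient and 32 in WT libraries, and 21 in each genotype at day 11. Ndufa4l2 had 6 reads in the 22 libraries, and 0 in both genotypes at day 11, which allows up to 3 reads there by counting error. Among the 3 genes for the same ATP synthase ring protein, Atp5g3 took 85.6% to 92.7% of the reads, Atp5g1 5.85% to 11.9% and Atp5g2 1.33% to 2.62%. Cox7a2l took 64.6% to 86.9% of the Cox7a reads and Cox7a2 13.0% to 35.3%. Cox7a2 is among the genes that differ between tumor and spleen below.

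**Figure D1:**
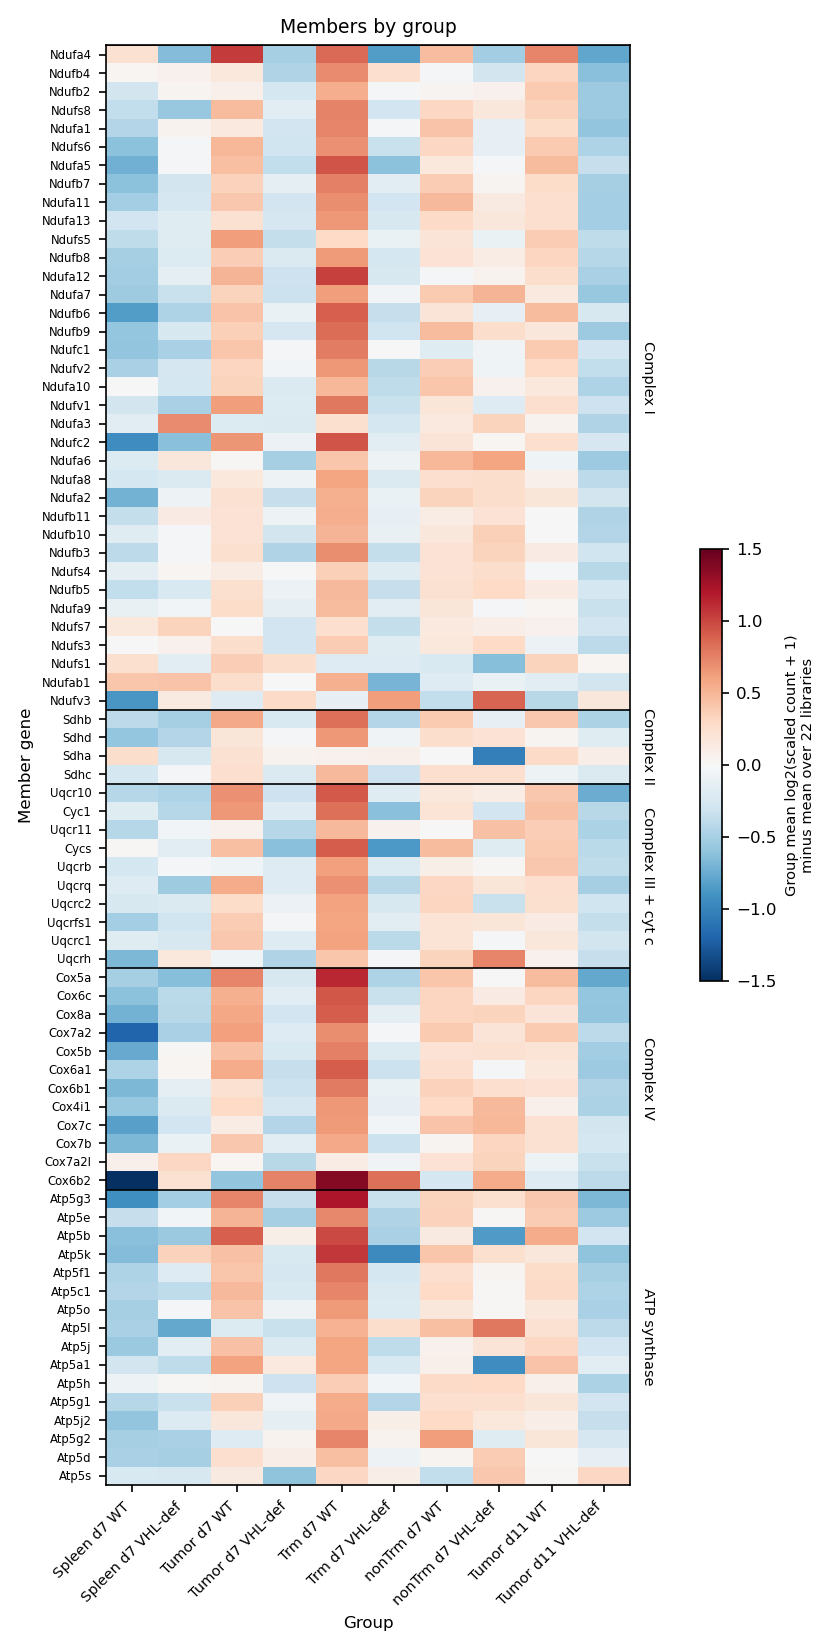
Mean log2 level of 78 of the 79 members in the 10 groups, as the difference from the mean of all 22 libraries, ordered by complex. The WT tumor columns are mostly above that mean and the VHL-deficient day 11 column mostly below it, and Ndufv3 runs the other way.

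At day 11, tumor CD8+ T cells without VHL had lower transcript levels of oxidative phosphorylation subunits. The fold change was below 0 for 77 of 79 members, with a median log2 fold change of -0.66 against 0.07 over all genes tested, and 4 members were called lower and 0 higher. The 4 were Ndufa4, Cox5a, Cyc1 and Atp5b, so complexes I by name, III, IV and ATP synthase each had 1. A gene is called where limma's adjusted p over all genes tested is under 0.05, and 2.39% of all genes were called lower here. In 66 members every VHL-deficient library was below every WT library, against 17.9% of all genes, and the reverse held for 1 member, against 20.6%.

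Ndufa4, long listed with complex I and now known as a subunit of complex IV (chr6:11900292-11907497, minus strand), had scaled counts of 125, 86.1 and 123 in the VHL-deficient day 11 libraries and of 295, 252 and 421 in the WT ones. The groups did not overlap, and the means were 111 ± 22 and 323 ± 87.8 (SD, n = 3 each). The log2 fold change was -1.51 (SE 0.37, adjusted p = 0.0164).

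Cox5a, a structural subunit of complex IV (chr9:57521274-57532426, plus strand), stood at 447, 408 and 456 without VHL against 948, 931 and 1237 in WT. Its means of 437 ± 25.4 and 1038 ± 172 (SD, n = 3 each) gave a log2 fold change of -1.24 (SE 0.34, adjusted p = 0.0324). Of its exonic bases, 12.8% are shared with a gene on the other strand, and whether counting used strand is not given.

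Cyc1, the cytochrome c1 subunit of complex III that hands electrons to cytochrome c (chr15:76343523-76346260, plus strand), was at 514, 504 and 625 against 899, 838 and 1289. Again no VHL-deficient library reached a WT one. The log2 fold change was -0.86 (SE 0.24, adjusted p = 0.0372).

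Atp5b, the beta subunit where ATP is formed (chr10:128083273-128090391, plus strand), was at 4476, 4447 and 5041 against 6946, 8044 and 10500. With means of 4655 ± 335 and 8495 ± 1818 (SD, n = 3 each) it had a log2 fold change of -0.85 (SE 0.23, adjusted p = 0.0273). These 4 calls depended on single libraries: the number called was 0 without the second VHL-deficient or the third WT library, 1 without either of the other 2 VHL-deficient ones and 2 without the first or second WT one. It was 13, against 4.56% of all genes lower, without the second nonTrm VHL-deficient library, which enters the estimate of the spread. The median over the members stayed between -0.70 and -0.56 in the same fits. The share of all genes is given for the fit with 13 calls only. The other counts therefore do not set members apart from all genes.

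The complexes had similar medians at day 11 except complex II. The median log2 fold change was -0.67 in complex I, -0.77 in complex III with cytochrome c, -0.69 in complex IV and -0.61 in ATP synthase, and -0.21 over the 4 subunits of complex II. Within complex II, the iron-sulfur subunit Sdhb was at 568, 603 and 579 without VHL against 1016, 1049 and 1168 in WT, a log2 fold change of -0.88 that missed the threshold (adjusted p = 0.0565). The flavoprotein Sdha, which oxidises succinate (chr13:74322254-74350280, minus strand), was at 1508, 1392 and 1555 against 1493, 1665 and 1954, a log2 fold change of -0.19 (adjusted p = 0.811), and its groups overlapped. The membrane anchors Sdhc and Sdhd overlapped too. Sdhc was at 110, 85.3 and 103 against 106, 108 and 113, and Sdhd at 675, 542 and 576 against 642, 617.5 and 841.

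Ndufv3, an accessory subunit beside the NADH site of complex I (chr17:31520115-31531331, plus strand), was the 1 member whose VHL-deficient day 11 libraries all lay above the WT ones. It had scaled counts of 388, 408 and 299 without VHL and of 233, 243 and 245 in WT, a log2 fold change of 0.59 (adjusted p = 0.283). Its fold change was above 0 in the other 4 settings as well, from 0.47 to 1.25 over all 5, with no call in any. The 1.25 was in nonTrm, where the value was 0.61 without the second VHL-deficient library.

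**Figure D2:**
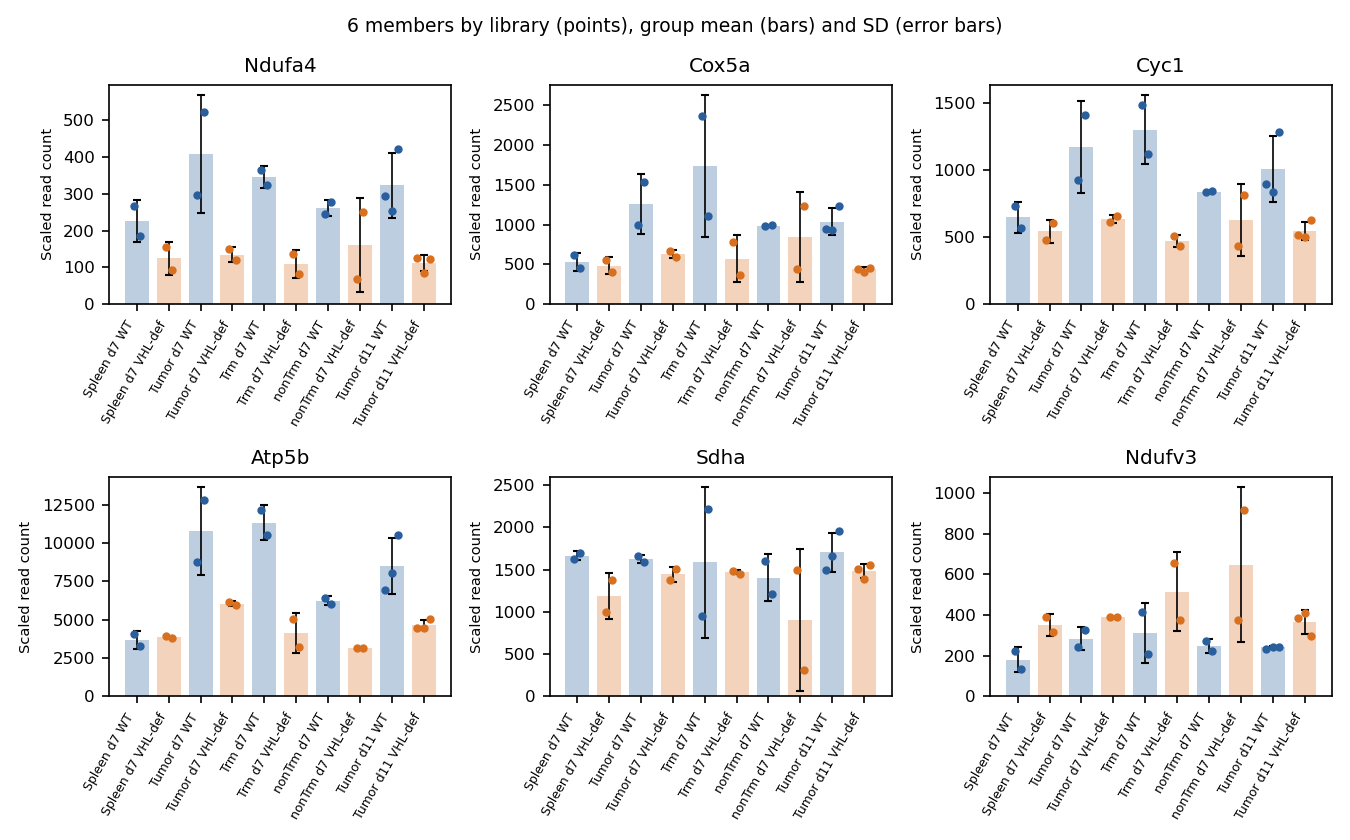
Scaled counts of Ndufa4, Cox5a, Cyc1, Atp5b, Sdha and Ndufv3 in each library of the 10 groups (points), with the group mean (bar) and SD (error bar). In the day 11 panels the WT points of Ndufa4, Cox5a, Cyc1 and Atp5b are all above the VHL-deficient points, those of Sdha overlap, and those of Ndufv3 are all below.

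In the Trm sort of day 7 tumor the members were lower without VHL by a larger median. The log2 fold change was below 0 for 76 of 79 members, with a median of -0.84 against 0.09 over all genes, and 10 members were called lower and 0 higher, against 5.03% of all genes called lower. The 2 VHL-deficient libraries were below the 2 WT libraries for 54 members, against 25.0% of all genes. Medians by complex were -0.81 in complex I, -0.75 in complex II, -0.93 in complex III with cytochrome c, -0.89 in complex IV and -0.90 in ATP synthase. Whether the Trm and day 11 differences differ from each other was not tested.

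Among the Trm calls, Atp5b and Cyc1 had the smallest adjusted p. Atp5b was at 5058 and 3222 without VHL against 12150 and 10520 in WT, a log2 fold change of -1.49 (SE 0.28, adjusted p = 0.00200). Cyc1 was at 506 and 438 against 1486 and 1119 (log2 fold change -1.45, SE 0.30, adjusted p = 0.00426). Cycs, the soluble carrier between complexes III and IV, was at 40.8 and 21 against 119 and 89.1 (log2 fold change -1.78, adjusted p = 0.0251). Cyc1 and Cycs were thus both called, and so were Uqcrc1 and Uqcrc2, the core proteins of complex III. Uqcrc1 was at 1686 and 1044 against 3236 and 2203 (log2 fold change -1.01, adjusted p = 0.0312), and Uqcrc2 at 1142 and 814 against 1976 and 1528 (log2 fold change -0.85, adjusted p = 0.0404).

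Complex IV and complex I members followed. Cox5a was at 780 and 368 without VHL against 2370 and 1105 (log2 fold change -1.59, adjusted p = 0.0191), with a wide spread in WT. Ndufa4 was at 137 and 81.5 against 366 and 324 (log2 fold change -1.69, adjusted p = 0.0221). Ndufv1, the subunit that binds NADH, was at 472 and 355 against 1095 and 730 (log2 fold change -1.12, SE 0.26, adjusted p = 0.00941). Ndufab1, the mitochondrial acyl carrier protein, was at 53.4 and 41.2 against 119 and 104.5 (log2 fold change -1.23, adjusted p = 0.0319). Sdhb of complex II was called as well, at 707 and 505 against 1870 and 1100 (log2 fold change -1.26, adjusted p = 0.0212), while Sdha stood at 1485 and 1453 against 957 and 2214, its WT libraries on either side. Ndufa4, Cox5a, Cyc1 and Atp5b were called at day 11 and in Trm. The groups share no library, but both tests use the same estimate of each gene's spread over all 22 libraries. The calls are therefore not independent.

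The number of Trm calls was 0 without the second VHL-deficient Trm library, 1 without the first WT one, 16 without the first VHL-deficient one and 36 without the second nonTrm VHL-deficient library, against 8.57% of all genes lower in the last. In each of these fits the median stayed below 0, between -1.24 and -0.49. The share of all genes is given for the last fit only, so the other counts do not set members apart from all genes.

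In the unsplit day 7 tumor the same direction held with no call. The fold change was below 0 for 76 of 79 members, with a median of -0.55 against 0.03 over all genes. Limma called 0 members, with 8 lower at an unadjusted p under 0.05 and 0 called by voom, and 0.223% of all genes were called lower. In 52 members both VHL-deficient libraries were below both WT ones, against 23.6% of all genes. Ndufa4 was at 149 and 120.5 without VHL against 296 and 522 in WT, and came nearest (adjusted p = 0.0968). It was called without the second nonTrm VHL-deficient library, where 0.496% of all genes were called lower. The median was -0.92 without the first WT library and -0.21 without the second, which had the fewer reads.

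In the nonTrm sort the 2 VHL-deficient libraries went apart. The median was -0.11 against 0.02 over all genes, with 49 members below 0, and limma called 0 members, with 5 lower and 1 higher at an unadjusted p under 0.05 and 0 by voom, against 0.670% of all genes called lower. Groups did not overlap in the lower direction for 7 members, against 14.4% of all genes, and in the higher direction for 2, against 19.6%. Without the second VHL-deficient library the median was -0.89, 75 members were below 0 and 1, Ndufa4, was called, against 0.293% of all genes lower. Without the first, the median was 0.73, and 6 members were called higher and 3 lower, against 5.26% of all genes higher and 8.68% lower. That fit leaves the arm with 1 library, the one that stands apart, which is assumed to vary like the other groups. Further scaling by TMM called 1, with the share of all genes not given for that fit.

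Atp5b and Atp5a1, the beta and alpha subunits of ATP synthase, were low in both nonTrm VHL-deficient libraries. Atp5b was at 3155 and 3126 against 6447 and 6025 in WT (log2 fold change -0.99, adjusted p = 0.0670), and Atp5a1 at 3390 and 1779 against 4918 and 4963 (log2 fold change -1.01, adjusted p = 0.0699). With the second VHL-deficient library left out, the log2 fold change was -0.98 for Atp5b and -0.54 for Atp5a1. Ndufa4 was split, at 69.7 and 251 against 246 and 278. Sdha ran the other way between the same libraries, at 1493 and 311 without VHL against 1604 and 1208.

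In spleen the members did not share that direction. The median was 0.21 against 0.04 over all genes, with 61 members above 0 and 18 below. None was called by limma (0, with 2 higher at an unadjusted p under 0.05 and 0 by voom), against 2.44% of all genes called higher and 0.733% lower. Groups did not overlap for 17 members in the higher direction, against 23.7% of all genes, and for 5 in the lower, against 19.8%. The median was -0.02 without the first VHL-deficient spleen library and close to 0 without the second WT one.

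Single subunits in spleen ran both ways. Complex IV had a median of 0.51, complex I of 0.20, ATP synthase of 0.09 and complex III with cytochrome c of -0.01. Ndufa4 was at 156 and 93.5 without VHL against 267 and 186.5 in WT, and Atp5b at 3909 and 3813 against 4088 and 3288, log2 fold changes of -0.88 (adjusted p = 0.435) and 0.07. Ndufv3 was at 391 and 315 against 225 and 136, a log2 fold change of 1.00 (adjusted p = 0.221). Both Ndufa4 and Ndufv3 therefore had the sign they had in tumor, without a call.

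**Figure D3:**
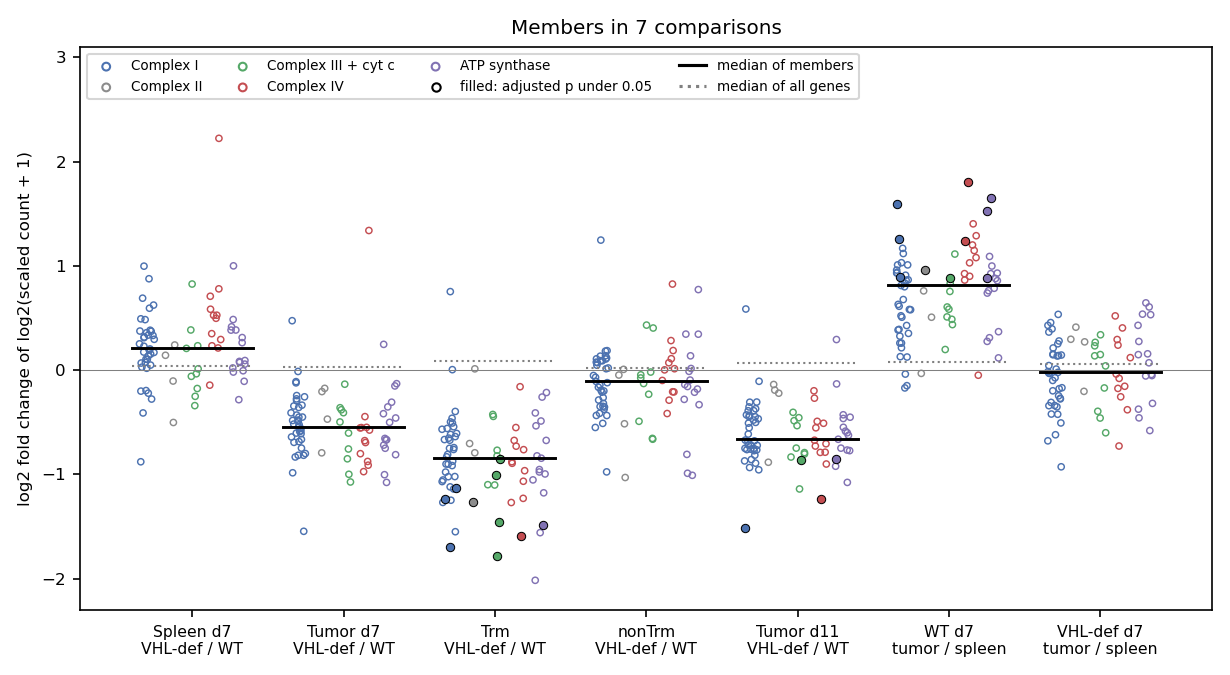
Log2 fold change of each member by complex in 7 comparisons. Points are members, filled where called, thick lines are the members' medians and dotted lines the medians of all genes tested. Points lie mostly below 0 in the day 11, unsplit day 7 and Trm genotype comparisons, on both sides in spleen and nonTrm, mostly above 0 for tumor against spleen in WT, and on both sides for that comparison without VHL.

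Side by side, 13 members were below 0 in all 5 genotype comparisons, among them Ndufa10, Ndufa4, Ndufs8 and Ndufv1 of complex I by name, Sdhb of complex II, Cyc1, Cycs, Uqcr10, Uqcrc1 and Uqcrq of complex III with cytochrome c, Cox5a of complex IV and Atp5a1 of ATP synthase. Ndufs8 carries iron-sulfur clusters of complex I. In day 11, unsplit day 7 and Trm together, 73 members were below 0, and Ndufs1, Ndufv3, Sdha, Cox6b2, Atp5g2 and Atp5s were not. In the same 3 settings, 35 members had every VHL-deficient library below every WT library of the setting, against 9.27% of all genes. These are counts of signs and levels, with no test.

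WT cells had higher levels of the subunits in tumor than in spleen at day 7. The fold change was above 0 for 74 of 79 members, with a median of 0.81 against 0.08 over all genes, and 10 members were called higher and 0 lower. Of all genes, 13.2% were called higher, so the members' share of calls was close to it. Both tumor libraries were above both spleen libraries for 56 members, against 33.1% of all genes. The median was 1.11 in complex IV and 0.87 in ATP synthase, and 0.63, 0.63 and 0.60 in complexes I, II and III. These WT tumor libraries are also the controls of the unsplit day 7 genotype comparison.

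Among the called genes, Atp5b was at 8766 and 12800 in WT tumor and at 4088 and 3288 in WT spleen (log2 fold change 1.53, SE 0.28, adjusted p = 5.21e-04). Cox7a2, a small subunit of complex IV, was at 330.5 and 576 against 150 and 103 (log2 fold change 1.80, SE 0.42, adjusted p = 0.00474), and Ndufc2, in the membrane arm of complex I, at 228 and 456 against 108.5 and 104 (log2 fold change 1.60, SE 0.39, adjusted p = 0.00677). In each of the 3, both tumor libraries were above both spleen libraries. Atp5g3 was at 1379 and 3316 against 846 and 548 (adjusted p = 0.0362), and Atp5a1 at 6220 and 8217 against 3912 and 3832 (adjusted p = 0.0326), so 3 of the 10 calls were in ATP synthase. Ndufv1 (log2 fold change 0.89, adjusted p = 0.0195), Cox5a (1.24, adjusted p = 0.0396), Uqcrfs1, the Rieske protein of complex III (0.88, adjusted p = 0.0403), Sdhb (0.96, adjusted p = 0.0465) and Ndufb6 (1.26, adjusted p = 0.0492) were the rest. Ndufb6 shares 39% of its exonic bases with another gene. Sdha did not follow, with a log2 fold change of -0.03. Of the 10, Atp5b, Cox5a, Ndufv1 and Sdhb were also called lower in VHL-deficient Trm cells, from other libraries but with the same estimate of spread.

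The number of these calls was 1 without the second WT tumor library, 2 without the second WT spleen library, 4 without the first WT spleen library, 20 without the first WT tumor library and 32 without the second nonTrm VHL-deficient library, against 17.1% of all genes higher in the last. The median stayed above 0 in these fits, between 0.47 and 1.14. For the other fits the share of all genes is not given, so their counts do not set members apart from all genes.

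Without VHL, tumor and spleen did not separate. The median was -0.02 against 0.06 over all genes, with 38 members above 0 and 41 below. By limma, 0 members were called, with 1 higher at an unadjusted p under 0.05 and 0 by voom, while 9.98% of all genes were called higher and 5.47% lower. Groups did not overlap for 17 members in the higher direction, against 33.8% of all genes, and for 11 in the lower, against 29.0%. The member with an unadjusted p under 0.05 was Atp5b, at 6145 and 5939 in tumor and 3909 and 3813 in spleen (log2 fold change 0.65, adjusted p = 0.125). The median was 0.19 without the first VHL-deficient spleen library and -0.22 without the second.

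The difference between those tissue contrasts, tested as an interaction of genotype and tissue, had a median of -0.78 over the members against -0.03 over all genes, with 75 of 79 below 0. Limma called 0 members, with 3 lower at an unadjusted p under 0.05 and 0 by voom, and 0.0489% of all genes were called lower. Cox7a2 (-1.51, adjusted p = 0.437) and Atp5b (-0.88, adjusted p = 0.484) were among the 3. The difference between genotypes in the tumor-to-spleen change is therefore not shown for any single member at this number of libraries. It uses the same 8 libraries as the day 7 comparisons above.

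**Figure D4:**
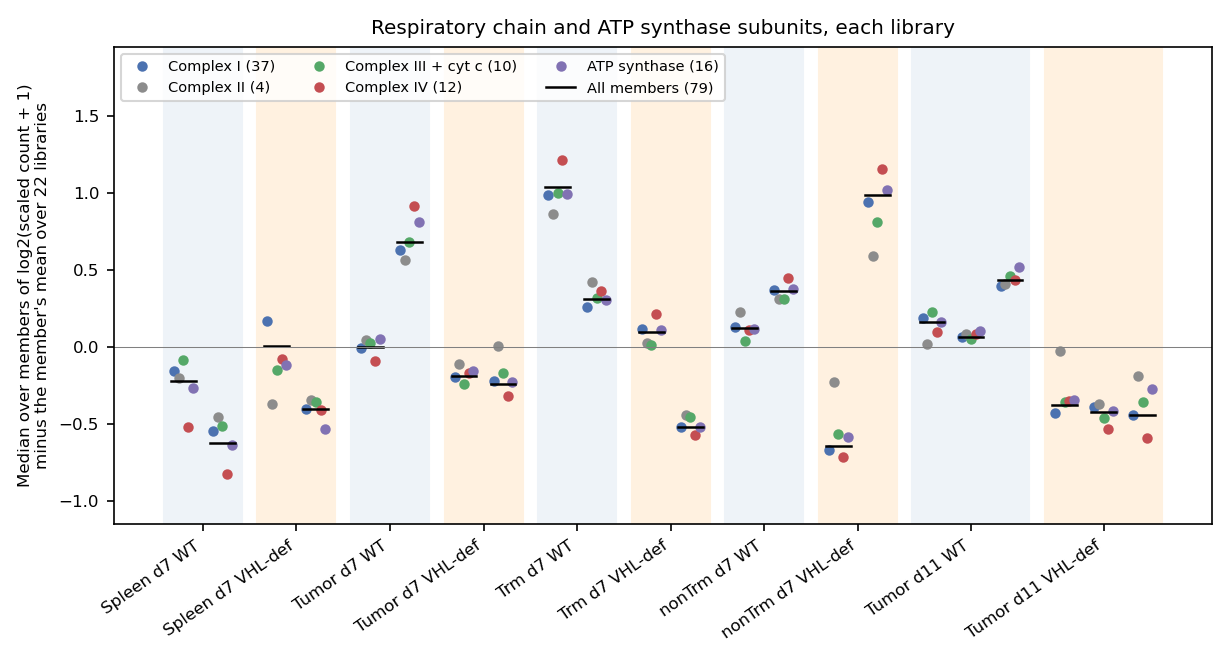
Median deviation of the members of each complex from the mean of all 22 libraries, by library, on the log2 scale. WT tumor libraries lie mostly above 0, VHL-deficient day 11 libraries between -0.44 and -0.38 for the median over all members, and the second nonTrm VHL-deficient library at 0.99.

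Between the Trm and nonTrm sorts, WT members had a median of 0.40 against 0.04 over all genes, with 77 of 79 above 0. Limma called 0 members, with 3 higher at an unadjusted p under 0.05 and 0 by voom, against 0.202% of all genes called higher. In 28 members both Trm libraries were above both nonTrm ones, against 21.5% of all genes. Atp5b, at 12150 and 10520 in Trm and 6447 and 6025 in nonTrm, had a log2 fold change of 0.86 (adjusted p = 0.192). These libraries are also those of the Trm and nonTrm genotype comparisons. The median was 0.06 without the first WT Trm library and 0.77 without the second.

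Without VHL the same contrast had a median of -0.37 against 0.02, with 68 members below 0, and limma called 0 members, with 2 higher at an unadjusted p under 0.05 and 0 by voom, against 0.00698% of all genes called higher. Groups did not overlap for 2 members in the higher direction, against 13.3% of all genes, and for 1 in the lower, against 11.3%. Without the second nonTrm library the median was 0.41 with 7 members below 0, and without the first it was -1.17, with 41 members called lower and 2 higher against 6.46% of all genes lower and 11.3% higher, from the 1 library that stands apart. The interaction of genotype and subset had a median of -0.78 against 0.01, with 75 below 0. Limma called 0 members (3 lower at an unadjusted p under 0.05, 0 by voom, and 0% of all genes). Its median was -0.01 without the second nonTrm VHL-deficient library and -1.58 without the first, where 36 members were called lower and 1 higher against 4.54% of all genes lower and 5.88% higher, again from the library that stands apart.

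The sample titles end in a letter and number code, whose number differs between the day 11 and day 7 tumor libraries. That number was read here as a plate column, which the labels do not say. The day and whatever that number marks cannot be told apart. In WT the median was -0.14 against -0.01 over all genes, with 61 members below 0, and without VHL it was -0.22 against 0.01, with 69 below 0. Limma called 0 members in both (0 at an unadjusted p under 0.05, 0 by voom), as it did for all genes (0%). Groups did not overlap in WT for 2 members in the higher direction, against 9.23% of all genes, and 1 in the lower, against 8.24%. Without VHL they did not overlap for 34 members in the lower direction, against 16.8%, and 2 in the higher, against 13.4%. The interaction of genotype and day had a median of -0.05 against -0.02 and 0 calls by limma (0 at an unadjusted p under 0.05, 0 by voom). The median in WT was 0.20 without the second day 7 library and -0.50 without the first.

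Other genes of the respiratory pathway were also lower in VHL-deficient tumor cells, to different degrees. Of the 13 protein subunits encoded by the mitochondrial genome, 8 were tested, and their median log2 fold change was -1.41 at day 11, -1.26 in unsplit day 7 tumor, -0.18 in spleen, -1.63 in Trm and -0.999 in nonTrm, with 7, 2, 0, 6 and 2 genes called lower. mt-Co1, the catalytic core of complex IV, was at 15710, 19560 and 16740 in the VHL-deficient day 11 libraries against 48560, 59020 and 68530 in WT (log2 fold change -1.75, adjusted p = 0.00183). The 8 tested mitochondrial-genome subunits thus had a lower median than the nuclear members in the 4 tumor settings, a difference that was not tested. Left out were mt-Nd4l, mt-Co2, mt-Co3, mt-Atp6 and mt-Atp8. Of these, mt-Atp6 had 0 reads in every group and mt-Co2, mt-Co3 and mt-Atp8 had 0 in most. The cause of these zeros was not tested, and the medians say nothing of the subunits left out.

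Assembly factors, which build the complexes but are not part of them, had medians of -0.33 at day 11, -0.27 in unsplit day 7 tumor, 0.07 in spleen, -0.48 in Trm and -0.11 in nonTrm over 49 tested genes of 51. In Trm 6 were called lower, among them the complex I assembly factors Ndufaf4 (-1.69, adjusted p = 0.00337) and Timmdc1 (-1.63, adjusted p = 0.0337). Of 18 import and carrier genes, 1 was called lower and 1 higher at day 11. Slc25a5, an ADP/ATP carrier of the inner membrane, fell by 1.29 on the log2 scale (adjusted p = 0.00943), and Vdac1, the outer membrane channel, rose by 0.80 (adjusted p = 0.0218). In Trm 7 of the 18 were called lower, including Slc25a5 (log2 fold change -2.13) and the chaperone genes Hspd1 (-1.75) and Hspe1 (-1.92). In WT tumor against spleen 10 were called higher.

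Regulators of mitochondrial biogenesis had medians of -0.09 at day 11, -0.21 in unsplit day 7 tumor, -0.41 in spleen, -0.01 in Trm and -0.18 in nonTrm over 17 tested genes, and of -0.02 in WT tumor against spleen. In spleen 14 of the 17 were below 0, with no call. In Trm 1 of them was called, Myc, which drives growth genes (log2 fold change -1.33, adjusted p = 0.0199). The 7 tested HIF-linked genes had medians of 1.56 at day 11, 1.41 in unsplit day 7 tumor, 0.90 in spleen, 1.75 in Trm and 1.28 in nonTrm, with 5, 4, 2, 5 and 4 called higher. Bnip3, a mitophagy receptor, was at 3157, 3336 and 2737 without VHL at day 11 against 171, 281 and 169 (log2 fold change 3.93, adjusted p = 2.66e-08). In spleen Bnip3 was at 1187 and 1198 against 43.1 and 16.8 (log2 fold change 5.41). Iscu, an iron-sulfur cluster scaffold, was called lower in Trm (-1.70, adjusted p = 0.00851).

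Cytosolic ribosomal protein genes, which are not part of respiration, had medians of the same sign as the members. Over 86 genes their median was -0.72 at day 11, -0.81 in unsplit day 7 tumor, 0.16 in spleen, -1.19 in Trm and -0.16 in nonTrm, and 1.15 in WT tumor against spleen, with 1 called lower at day 11 and 17 in Trm. The 74 mitochondrial ribosomal protein genes had medians of -0.40, -0.42, 0.12, -0.86 and -0.14 in the same order of genotype comparisons, with 13 called lower in Trm.

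Proliferation markers were lower without VHL in all 5 settings. Their median log2 fold change was -1.90 at day 11, against -0.66 for the members, and -0.86 in unsplit day 7 tumor, against -0.55. It was -0.74 in spleen, against 0.21 for the members, and -1.35 in nonTrm, against -0.11. The members' nonTrm median was -0.89 without the second VHL-deficient library of that group, and the markers' median in that fit is not given. Of 15, 11 were called lower at day 11, 12 in Trm and 1 in nonTrm, and their summed level was 5036 to 6455 without VHL against 16010 to 18860 in WT at day 11, 4275 to 9351 against 23080 to 25760 in Trm, 12630 to 13600 against 18190 to 25290 in unsplit day 7 tumor, 2179 to 2414 against 2993 to 3009 in spleen and 2573 to 4720 against 4291 to 10590 in nonTrm. All 15 were called higher in tumor than in spleen in both genotypes. Of the 6 B cell markers 2 were tested. Ighm, an immunoglobulin heavy chain gene, was called lower without VHL in all 5 settings, with log2 fold changes of -2.57 to -1.80, while Cd79b, a B cell receptor chain, was above 0 in all 5 (0.72 to 1.12) and called in none. The summed level of the list was 76.1 to 135 against 311 to 591.5 at day 11, 195 to 197 against 532 to 1018 in unsplit day 7 tumor, 579 to 637 against 1176 to 1227 in spleen, 193 to 196 against 397 to 497 in Trm and 127 to 297 against 469 to 881 in nonTrm. Dendritic cell markers summed to 120 to 264 against 95.1 to 301 at day 11, where 2 of 3 tested were called lower, and NK cell markers to 31.3 to 55.3 against 61.4 to 223, where 1 of 4 was. The 9 macrophage and monocyte markers summed to 55.7 to 74.7 against 98.6 to 132 at day 11, with 4 tested and 0 called. The 5 neutrophil markers, of which 0 were tested, summed to 0.763 to 3.84 against 1.82 to 728.5, the highest from 1 WT library. The 9 T cell markers summed to 36590 to 41170 against 31890 to 34130 at day 11. The 3 long nuclear RNAs summed to 8326 to 9140 against 7285 to 8193 at day 11, 6518 to 6575 against 5683 to 5910 in unsplit day 7 tumor, 10770 to 15270 against 11610 to 12390 in spleen, 13040 to 14240 against 7702 to 10120 in Trm and 10740 to 35500 against 9493 to 16080 in nonTrm. Of them Neat1 was called higher in Trm and no other call was made in the 5 genotype comparisons. The part of these in the members' differences was not tested.

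The members' level differed between the shallowest and the deepest library of each group. In 10 of 10 groups the library with the fewest reads outside the ribosomal RNA gene and the mitochondrial genome had a higher median member level than the deepest, by 0.04 to 1.63 on the log2 scale. The gap was 1.63 in VHL-deficient nonTrm, 0.73 in WT Trm and 0.68 in unsplit WT day 7 tumor, and 0.04 and 0.09 in the 2 day 11 groups. Those 2 groups each hold a further library that this comparison leaves out. In WT that library had 5191843 reads against 2233114 in the shallowest. It was above the shallowest for Ndufa4, Cox5a, Cyc1 and Atp5b, the members called at day 11. For other members, among them Ndufa13, Uqcr11 and Atp5h, it was below the shallowest. At day 11 the reads were 3672055 to 5781261 without VHL and 2233114 to 5467540 in WT, and the members' share of the other nuclear reads was 0.82% to 0.90% against 1.21% to 1.5%. The part of depth in the members' differences was not tested.

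**Figure D5:**
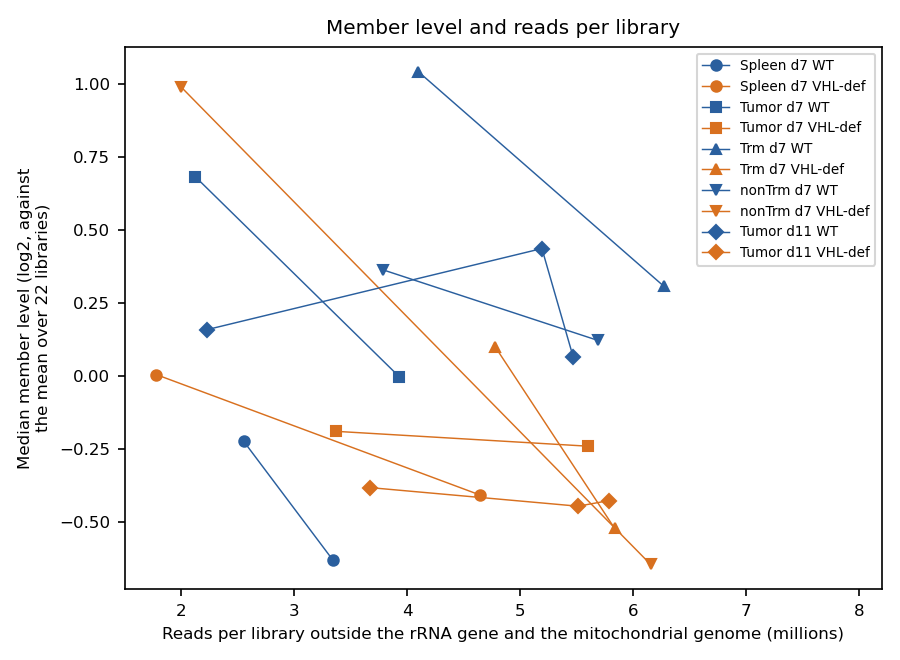
Median member level of each library (difference from the mean of all libraries, log2 scale) against its reads outside the ribosomal RNA gene and the mitochondrial genome. Lines join the libraries of a group. Within each of the 10 groups the library with the fewest reads lies above the deepest one.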

How the data were processed

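Per the submitters' processing notes, reads were handled with STAR, featureCounts and DESeq on build mm10, with no versions or counting settings given in the sources used here. The deposited table holds a signal per gene and library that the values show to be the read count divided by a size factor, plus 1. The scaled count used here is that value minus 1, and dividing it by the value of 1 read gave whole numbers within 0.01 reads for 100% of values in every library. Libraries held 3375558 to 10211060 reads. Intervals and limits on counts of 0 cover counting error only.

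The 14327 genes that reached a scaled count of 10 in 2 or more libraries were fitted on log2(scaled count + 1) with limma 3.58.1 in R 4.3.3: 1 model of 10 group means over 22 libraries (12 residual degrees of freedom), empirical Bayes with a trend, Benjamini-Hochberg adjustment over all genes tested, and calls at an adjusted p under 0.05 in 14 comparisons. Fold changes are on the log2(scaled count + 1) scale, which understates those of low genes. The script was tested on simulated data. Figures and other values were made with Python 3.11.15, pandas 2.3.3, numpy 2.4.6 and matplotlib 3.10.9. Positions and lengths come from GENCODE M21, in which 78 of 79 members had 1 entry, and promoters from RefSeq.

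Members were chosen by symbol, and values of 1 of them are not reported here. Named were all called members of a comparison (at most 12), and in each complex the member with the highest level and those with the lowest and highest fold change; isoform sets and the core subunits could always be described. Genes and sequences outside that rule were chosen after their values were seen. The members and lists were chosen with earlier results of these data known. Replicates are pools of mice, and the p-values measure the spread between them. The alternatives were TMM scaling (own code), a pseudocount of 5, no filter, no trend, the replicate number as a block, each library left out and, added after seeing the data, voom on the recovered reads and a crossed block.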

Additional observations from a re-analysis of the deposited data

How the results depend on the processing

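The number of members called moved by more than 1.5 times in some settings. The share of all genes called is not given beside the counts that follow. They therefore do not tell a change in the members from a change in all genes. With no filter it was 2 at day 11 (main 4), 4 in Trm (main 10) and 3 in WT tumor against spleen (main 10); without the trend it was 2, 5 and 4. TMM scaling gave 1 in nonTrm (main 0) and 6 in WT tumor against spleen, and in the subset interaction it moved the median over all genes from 0.01 to 0.12. Voom gave 16 in Trm. Leaving out 1 library gave 0 to 13 calls at day 11, 0 to 1 in unsplit day 7 tumor, 0 to 36 in Trm, 0 to 9 in nonTrm, 0 to 43 in Trm against nonTrm without VHL, 1 to 32 in WT tumor against spleen and 0 to 37 in the subset interaction. The medians then ran from -0.70 to -0.56 at day 11, -0.92 to -0.21 in unsplit day 7 tumor, -0.02 to 0.47 in spleen, -1.24 to -0.49 in Trm, -0.89 to 0.73 in nonTrm, 0.06 to 0.77 and -1.17 to 0.41 in Trm against nonTrm (WT, VHL-deficient), 0.47 to 1.14 and -0.22 to 0.19 in tumor against spleen, -0.50 to 0.20 and -0.25 to -0.20 in day 11 against day 7, and -1.13 to -0.37, -1.58 to -0.0119 and -0.45 to 0.27 in the interactions with tissue, subset and day. Ndufa4 at day 11 was called in 11 of 13 settings (adjusted p 0.00145 to 0.0999), Atp5b in 8, Cyc1 in 6 and Cox5a in 5. The replicate numbers are not tied to a shared source in the labels, and the correlations of same-numbered deviations at day 11 were 0.04, 0.10 and 0.10. Between genotypes they were 0.24 in Trm, 0.27 in nonTrm, 0.12 in spleen and 0.03 in unsplit day 7 tumor, each from 2 pairs, which is too few to show a pairing, and the numbers were not taken as pairs. With the replicate block, 5 members were called in WT tumor against spleen (main 10), the median in VHL-deficient day 11 against day 7 was -0.27 (main -0.22), and no other count moved by over 1.5 times. In Trm against nonTrm the correlations were -0.15 and -0.18, and the crossed replicate block called 0 members in each genotype. The cause of these shifts was not tested. Depth limits the low members, such as Cox6b2 and Ndufb4.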
